A study of Homo sapiens with 2 samples.

Results

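Hashtag 2 cells in the epithelial state were compared with epithelial-state control cells of the same pooled single-cell library. The 3 labelled lines were made from C1, a stably epithelial derivative of the cell line HMLER. HMLER was made from human mammary epithelial cells by immortalisation and transformation with oncogenic RAS. Hashtag antibodies carry a short DNA barcode that is counted with the RNA and marks which cell suspension a cell came from. Hashtag 1 marked C1-sgControl, the line with a control guide RNA. Hashtag 3 marked C1-sgEED, a knockout of EED, and hashtag 4 marked C1-sgKMT2D, a knockout of KMT2D. The labels tie hashtag 2, which has counts in the matrix, to no line. Its cells are therefore named by their hashtag throughout, and no genotype is given to them. The labels give 1 medium for the pool, with insulin, EGF and hydrocortisone. Both library titles call the pool mixed clones, but how many clones stand behind a hashtag, and where the EED and KMT2D edits lie, was not stated.

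A barcode was given to a hashtag when its top hashtag had at least 150 UMIs and at least 10 times the count of the next. Cells with at least 500 genes and at most 20% mitochondrial UMIs were kept. The state of a cell was read from V, the vimentin share of its UMIs over 5 genes, VIM, KRT5, KRT17, S100A14 and SFN, where these summed to at least 5. The compared cells were selected on V, those up to 0.5, so the values that chose them are UMIs of these 5 genes. Of 10336 barcodes, 9278 carried 1 hashtag and 8281 of these were kept. Of the 1921 hashtag 2 cells with a value of V, 1007 had V up to 0.5, or 52.4% (50.2 to 54.7), and 914 lay above it. Of the control cells, 1713 of 1713 had V up to 0.5. The epithelial-state cells of hashtag 3 numbered 1252 and those of hashtag 4 numbered 1360. The intervals here and below are exact 95% intervals that cover counting error only. Each hashtag is 1 sample, so no difference has a replicate check and no p-value was computed.

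The hashtags are told apart by these 15-base barcodes, printed from the labels because they are what assigns each cell to its group:
Hashtag 1, C1-sgControl: gtcaactctttagcg
Hashtag 3, C1-sgEED: ttccgcctctctttg
Hashtag 4, C1-sgKMT2D: agtaagttcagcgta
For hashtag 2 the sources used here give no barcode. Its cells had a median of 1827 UMIs of their own hashtag and 16 of the next. Control cells had 1539 and 12.

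Basal mammary epithelial cells carry keratins 5, 14 and 17 as their intermediate filaments. They are anchored to the basement membrane by laminins and integrins and to each other by cadherins, claudins and desmosomes. In an epithelial-to-mesenchymal transition these genes are lowered and vimentin, fibronectin and matrix genes are raised. PRC2, the Polycomb complex that needs EED, places a repressive methyl mark on histone H3. KMT2D is a methyltransferase that marks enhancers.

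The hashtag 2 cells held 6901464 gene UMIs with a median of 6437 per cell, and the control cells 9943405 with a median of 5699. Mitochondrial UMIs made up a median of 6.29% in hashtag 2 and 8.27% in the control. The filter had removed 4.18% of hashtag 2 cells and 26.5% of control cells, 594 of the latter over the mitochondrial limit. Whether these differences play a part in the results was not tested. With at most 10% mitochondrial UMIs and at least 1000 genes the numbers of higher and lower genes given below were 461 and 1334, and with no mitochondrial limit they were 483 and 1571.

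By V itself the 2 groups were not the same. Median V was 0.188 in hashtag 2 (quartiles 0.105 and 0.287) and 0.0745 in the control (quartiles 0.035 and 0.125). V up to 0.1 was found in 24.2% of the hashtag 2 cells and in 65.4% of the control cells, and V between 0.25 and 0.5 in 32.0% and 3.04%. Since the rule used V, these values and those of its 5 genes are a description only. VIM, the intermediate filament of mesenchymal cells, was at 2219 CPM (UMIs per 1e+06 gene UMIs) in hashtag 2 and 1149 CPM in the control. KRT17 was at 3376 against 7247 CPM and KRT5 at 1963 against 2361 CPM. S100A14, a calcium-binding protein of epithelia, was at 3063 against 2701 CPM. SFN, an epithelial 14-3-3 protein, was at 1281 against 1377 CPM. Near the bound, 87 hashtag 2 cells had V between 0.4 and 0.5 and 81 had V between 0.5 and 0.6. VIM was at 4049.8 CPM just inside and 4969 CPM just outside, KRT17 at 1922 and 1710.3 CPM, and S100A14 at 1124 and 658 CPM. Only 5 control cells had V between 0.4 and 0.5 and 0 lay above.

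**Figure D1:**
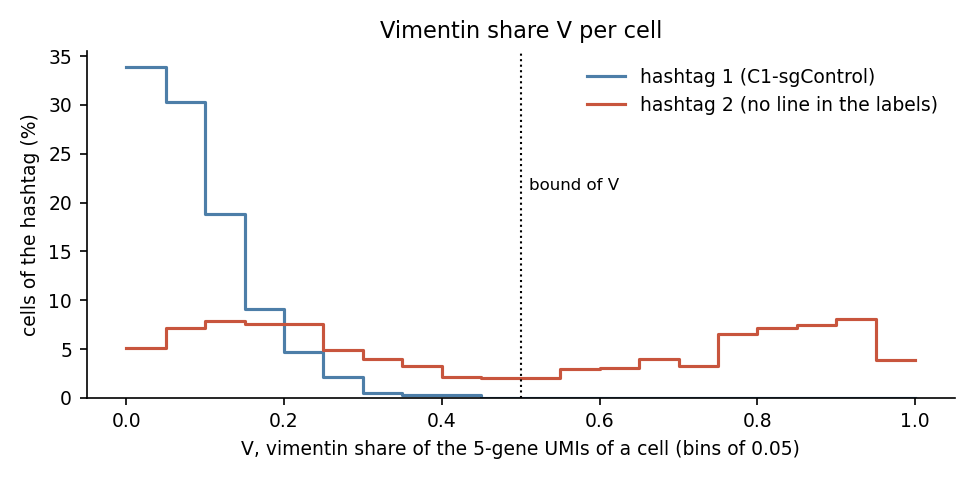
Share of cells (%) by V in bins of 0.05 for hashtag 1 (blue, 1713 cells) and hashtag 2 (red, 1921 cells), with the bound at 0.5 dotted. The control ends below the bound, and hashtag 2 has cells over the whole range, 52.4% of them up to the bound.

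The label of an epithelial state was set beside the basal keratins. KRT14, which the rule did not use, was read at 1535 CPM in the control, 3602 in hashtag 2, 559.8 in hashtag 3 and 638 in hashtag 4, so hashtag 2 had the highest level of the 4. It was 2.35-fold (2.299 to 2.39) higher in hashtag 2 than in the control. Thinned to 2000 UMIs, 88.5% of 974 hashtag 2 cells and 67.7% of 1636 control cells had a KRT14 UMI (unthinned 94.6% and 78.7%). In the hashtag 2 cells with V over 0.5 it was at 529 CPM. That is close to its level in the epithelial-state cells of hashtags 3 and 4, so KRT14 alone is no check of the state. The keratin pattern was not that of the control in other members: KRT15 was 3.22-fold (3.01 to 3.45) lower and KRT6B 4.84-fold (4.304 to 5.46) lower, while KRT6A was level at 2953 against 2960.1 CPM. KRT6A and KRT6B are near-identical, so their split is uncertain. The simple keratins KRT7, KRT8 and KRT18 were within 1.5-fold of the control, and the hair keratin KRT81 was 7.66-fold (6.599 to 8.95) lower. Most markers of other cell types were at or near 0, but CD68 and COL1A1 were not. PTPRC and LYZ had 0 UMIs in both groups, CDH5 had 0 in both, and SOX10 had 0 in both. The immune list summed to 24.9 CPM in hashtag 2 and 22.6 in the control, most of it CD68 at 20.4 and 19.7 CPM. The endothelial list summed to 1.01 and 0.302 CPM. The fibroblast and pericyte list summed to 20.7 and 22.9 CPM, with COL1A1 at 19.1 and 14.2 CPM and FAP at 1.16 and 7.74 CPM.

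Over all genes, more were lower than higher in hashtag 2. A gene was measured where it reached 10 CPM in either group, which held for 7541 genes, and it was counted as higher or lower when it differed by at least 1.5-fold on log2(CPM + 1). Of these, 462 (6.13%) were higher in hashtag 2 and 1415 (18.8%) were lower. At 2-fold the counts were 135 (1.79%) and 485 (6.43%). The median of all measured genes was -0.15 on the log2 scale, with quartiles of -0.47 and 0.15. After centring on that median, 734 genes were higher and 949 lower, so the share of higher genes among both went from 24.6% to 43.6%. With TMM scaling it was 44.2%, and the median of all genes was 0.0095. The excess of lower genes thus depends on the scaling, and list medians below are read against -0.15. Counts of list members are read against the 6.13% higher and 18.8% lower of all measured genes. Against the epithelial-state cells of hashtag 3, 323 of 7627 genes (4.23%) were higher in hashtag 2 and 1498 (19.6%) lower. Against those of hashtag 4, 561 of 7310 (7.67%) were higher and 951 (13%) lower. These comparisons share the hashtag 2 cells.

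**Figure D2:**
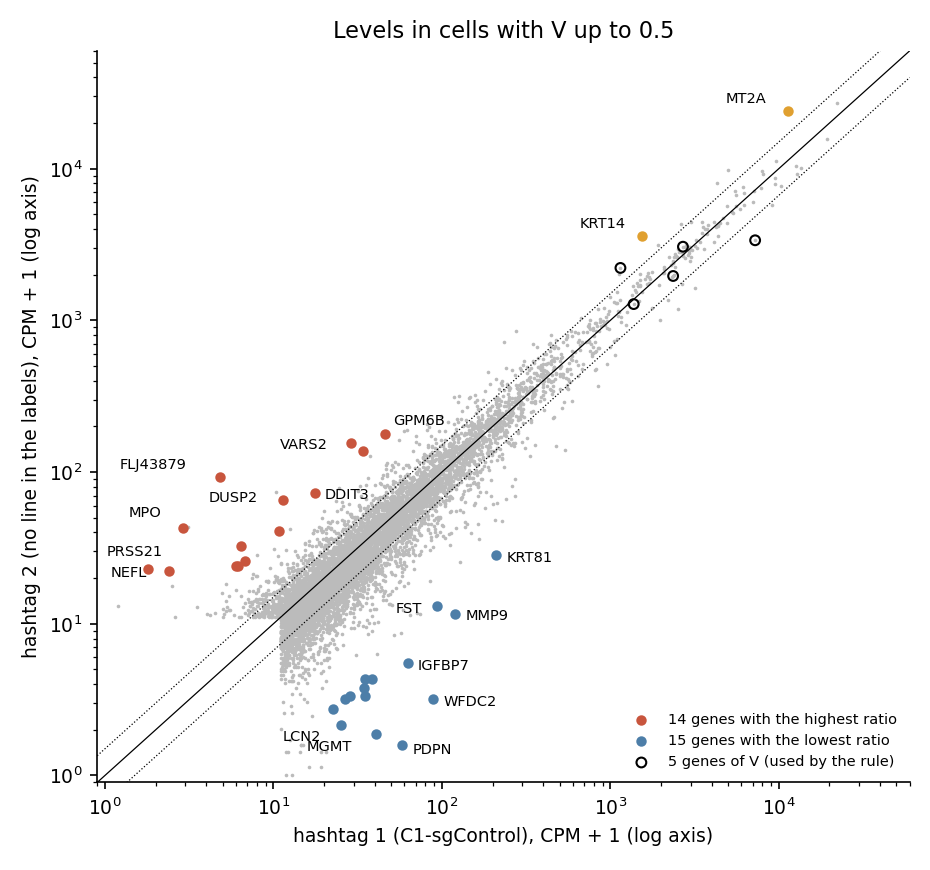
Levels of the 7541 measured genes (grey points) in epithelial-state cells of hashtag 1 and hashtag 2, as CPM + 1 on log axes, with equality solid and 1.5-fold dotted. PDPN, WFDC2 and MGMT lie at the bottom edge, FLJ43879 and MPO far above the line, and KRT14 and MT2A stand out among abundant genes.

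Some of the genes with the lowest ratios were nearly absent from hashtag 2. PDPN, the membrane glycoprotein podoplanin of basal epithelium, was read at 57.2 CPM in the control, 0.5796 in hashtag 2, 87.6 in hashtag 3 and 79.5 in hashtag 4. Its 4 UMIs in hashtag 2 against 569 in the control put it 98.7-fold (38.4 to 364) lower. WFDC2, a secreted protease inhibitor, was at 87.6, 2.17, 107 and 36.1 CPM in hashtags 1, 2, 3 and 4, and was 40.3-fold (24.3 to 72.3) lower in hashtag 2 than in the control. MGMT, the DNA repair enzyme that removes alkyl groups from guanine, was at 39.5, 0.869, 2.74 and 37.2 CPM, and was 45.5-fold (20.7 to 125) lower. Hashtag 2 was thus the lowest of the 4 for these 3 genes, and for MGMT hashtag 3 was low too. PDPN is at chromosome 1, 13583465 to 13617957 (plus strand), WFDC2 at chromosome 20, 45469706 to 45481532 (plus), and MGMT at chromosome 10, 129467184 to 129768007 (plus), on GRCh38 with GENCODE 29. A UMI of PDPN was found in 2 of 974 thinned hashtag 2 cells (0.205%) and in 9.66% of thinned control cells (unthinned 0.397% and 27.1%). WFDC2 was found in 0.411% and 13.3% (unthinned 1.49% and 27.8%). Counts this low are not told apart from free RNA in the droplets, since the pool held no cell type known to lack these genes.

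The promoters of these 3 genes are printed because their transcripts were nearly gone and because they differ in CpG content, the sites at which DNA methylation can silence a promoter. They are the RefSeq sequences on GRCh38.p14, 250 bases before to 50 after the start, 5′ to 3′ on the gene's own strand, with each CG in capitals:
PDPN, chr1:13583507-13583806, plus strand: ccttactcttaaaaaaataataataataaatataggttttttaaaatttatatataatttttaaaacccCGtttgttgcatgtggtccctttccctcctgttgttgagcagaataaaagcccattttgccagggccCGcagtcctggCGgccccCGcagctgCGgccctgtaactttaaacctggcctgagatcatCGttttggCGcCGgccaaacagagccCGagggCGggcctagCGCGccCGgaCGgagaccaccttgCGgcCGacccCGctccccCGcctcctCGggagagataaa
WFDC2, chr20:45469503-45469802, plus strand: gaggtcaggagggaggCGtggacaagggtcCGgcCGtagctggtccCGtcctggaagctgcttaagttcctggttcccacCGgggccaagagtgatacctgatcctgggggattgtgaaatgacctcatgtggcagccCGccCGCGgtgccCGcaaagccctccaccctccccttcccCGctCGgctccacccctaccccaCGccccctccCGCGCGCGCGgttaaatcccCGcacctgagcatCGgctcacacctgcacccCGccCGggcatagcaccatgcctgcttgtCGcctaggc
MGMT, chr10:129466991-129467290, plus strand: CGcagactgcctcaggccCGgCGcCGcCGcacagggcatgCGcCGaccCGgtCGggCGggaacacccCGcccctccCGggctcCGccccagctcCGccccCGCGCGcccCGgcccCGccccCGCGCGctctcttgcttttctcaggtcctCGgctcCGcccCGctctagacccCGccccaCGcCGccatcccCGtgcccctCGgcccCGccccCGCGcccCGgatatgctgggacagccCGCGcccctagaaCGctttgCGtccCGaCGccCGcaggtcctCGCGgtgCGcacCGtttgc
The MGMT promoter holds 45 CG, WFDC2 22 and PDPN 19. CG reads the same on both strands. At least 45 CG are found in 3.39% of the 27305 promoters of the table, at least 22 in 37.6% and at least 19 in 43.0%. The median is 14 over all promoters and 27 over the promoters of measured genes. Of the 15 lowest genes 11 matched the table, with a median of 22, and of the 14 highest genes 8 matched, with a median of 26. DNA methylation was not measured here.

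The other 12 lowest genes ranged from 7.66-fold (6.599 to 8.95) lower for KRT81 to 20.9-fold (10.4 to 48.99) lower for LCN2. Several are secreted or matrix proteins. LCN2, the iron-siderophore carrier lipocalin 2, was at 24.2, 1.16, 18.7 and 1.18 CPM in hashtags 1 to 4. MMP9, a gelatinase, was at 119, 10.6, 83.4 and 12.8 CPM. FST, the activin antagonist follistatin, was at 93.1, 12.03, 32.04 and 9.13 CPM. For these 3 the KMT2D knockout was as low as hashtag 2 or close to it. IGFBP7, a secreted binding protein of insulin-like growth factors, was at 61.6, 4.49, 76.8 and 31.7 CPM, and PYCR1, a proline synthesis enzyme of mitochondria, at 33.8, 3.33, 54.1 and 35.4 CPM. For both, hashtag 2 stood below the other 3. IRX4 is a homeobox factor, EGLN3 a prolyl hydroxylase that targets hypoxia-inducible factor, SERPINB2 an inhibitor of plasminogen activators and ALDH1A3 a retinal dehydrogenase. The set also held TUSC1 and PCSK1N, beside the hair keratin KRT81.

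Among the genes with the highest ratios, some were low in the 3 other hashtags and some were not. FLJ43879, a long intergenic RNA at chromosome 2, 238919302 to 238926269 (minus), was at 3.82 CPM in the control, 91.9 in hashtag 2, 5.15 in hashtag 3 and 1.83 in hashtag 4. It was 24.04-fold (17.3 to 34.3) higher than in the control and had a UMI in 34.1% of hashtag 2 cells and 2.04% of control cells (thinned 15.5% and 0.489%). MPO, the myeloperoxidase of neutrophil granules, was at 1.91, 42.02, 6.44 and 1.503 CPM in hashtags 1 to 4, or 21.99-fold (13.8 to 37.1) higher than in the control. The white-cell markers PTPRC and LYZ were at 0 UMIs in hashtag 2, but other members of the immune list were not. CD68 was at 20.4 CPM in hashtag 2 against 19.7 in the control, CSF1R at 2.9 against 1.51 and CD14 at 0.869 against 0.302. VARS2, the mitochondrial valyl-tRNA synthetase, was at 27.96, 155, 13.2 and 9.34 CPM, 5.54-fold (4.85 to 6.34) higher, and NARS2, the mitochondrial asparaginyl-tRNA synthetase, was 4.07-fold (3.22 to 5.18) higher. DDIT3, the stress factor CHOP, was at 16.6, 72.2, 33.97 and 51.5 CPM, 4.35-fold (3.64 to 5.22) higher. DUSP2, a phosphatase of MAP kinases, was at 10.5, 64.9, 48.1 and 9.56 CPM, so that hashtag 3 came close to hashtag 2. The remaining members were PRSS21, a membrane serine protease, NEFL, the light neurofilament, the glycoprotein GPM6B, C1QL1, PRCD, SLC22A18AS, TMEM117 and AAMDC. They ranged from 3.99-fold (3.58 to 4.46) for GPM6B to 27.4-fold (13.5 to 64.6) for PRSS21. SLC22A18AS is antisense to SLC22A18, and the sources used here do not say whether the counting used strand.

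By the smallest ratio to all 3 other hashtags, FLJ43879, MPO, VARS2, TMEM117 and TRPV3 stood highest in hashtag 2. TRPV3, a heat-gated cation channel of keratinocytes, was at 27.5 CPM against 7.04, 5.31 and 1.61 in hashtags 1, 3 and 4. PDPN, CADM1, MYADM, WFDC2 and PYCR1 stood lowest. CADM1, an adhesion molecule of the immunoglobulin family, had 3 UMIs in hashtag 2, or 0.435 CPM against 19.6, 58.6 and 19.01, a ratio to the control of 0.0222 (0.00453 to 0.0657). MYADM, a membrane protein, had 0 UMIs in hashtag 2 against 118 in the control.

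**Figure D3:**
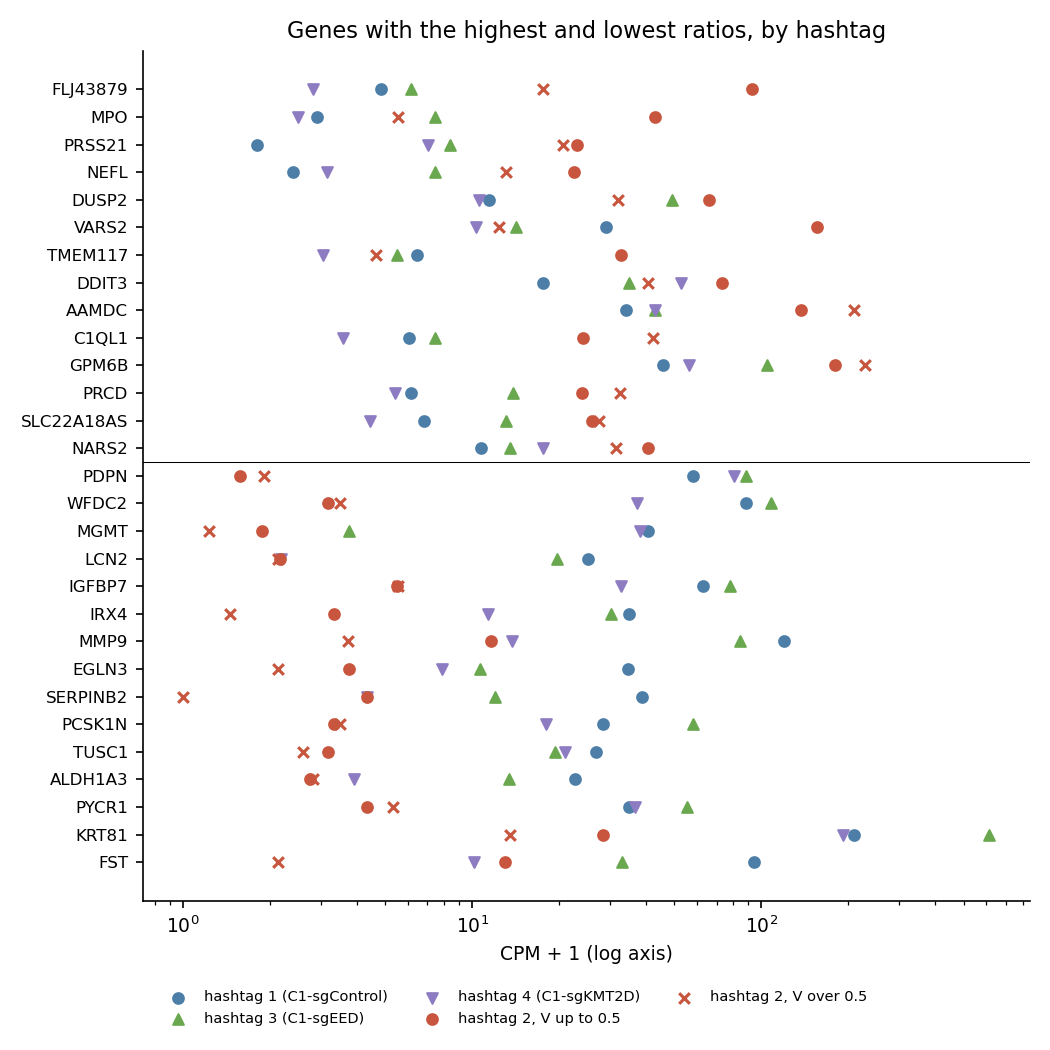
CPM + 1 (log axis) of the 14 highest genes (above the line) and the 15 lowest genes in the epithelial-state cells of 4 hashtags and, as crosses, in hashtag 2 cells with V over 0.5. For the lowest genes the crosses lie beside or below the red points, and for VARS2 and TMEM117 they lie with the other hashtags.

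The hashtag 2 cells above the bound shared many of these levels. PDPN was at 0.911 CPM there, WFDC2 at 2.505, MGMT at 0.228 and LCN2 at 1.14. AAMDC was at 209 CPM above the bound and 136 below it, and GPM6B at 228 and 179. In contrast VARS2 was at 11.4 CPM above the bound against 155 below it, TMEM117 at 3.64 against 31.6, MPO at 4.55 against 42.02 and FLJ43879 at 16.6 against 91.9. For these 4 genes the level in hashtag 2 cells above the bound was thus nearer to that of the control than to that of hashtag 2 cells below it.

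Cell-cell junction genes were mostly lower. Of 21 measured members 0 were higher and 14 lower, with a median of -0.67 on the log2 scale against -0.15 for all measured genes. CDH1, E-cadherin, was at 30.9 CPM against 65.9, or 2.13-fold (1.83 to 2.503) lower. Among the claudins of tight junctions CLDN4 was 6.93-fold (5.19 to 9.43) lower, CLDN1 6.11-fold (4.78 to 7.91) and CLDN7 3.79-fold (2.87 to 5.08). ST14, the epithelial protease matriptase, was 4.04-fold (3.05 to 5.41) lower. EPCAM, an epithelial adhesion molecule, went the other way at 81.7 against 57.4 CPM, a ratio of 1.42 (1.26 to 1.602). Of 9 desmosome genes 2 were lower, DSP and PKP1, and 0 higher, a share near the 18.8% of all measured genes.

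Genes that anchor cells to the basement membrane were lower as well, 13 of 18 with a median of -0.74, and 0 were higher. COL7A1, the anchoring fibril collagen, was 2.88-fold (2.53 to 3.28) lower, COL17A1 of the hemidesmosome 2.205-fold (2.01 to 2.42), the laminin chain LAMA3 2.02-fold (1.91 to 2.14) and the integrin ITGA2 2.52-fold (2.14 to 2.98). ITGB1, the common beta integrin chain, was at 403 against 321 CPM. Of 10 epithelial transcription factors 5 were lower. ELF3 was 6.69-fold (4.16 to 11.4) lower, EHF 7.45-fold (4.01 to 15.3) and KLF4 2.62-fold (2.23 to 3.08), while TP63, the master factor of basal epithelium, was level at 23.6 and 23.3 CPM.

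Mesenchymal genes did not go up as a group. Of 30 measured members 5 were higher and 16 lower, with a median of -0.81, which was -0.19 with no filter on low values and -0.55 outside the blocks of neighbouring genes described below. VIM, 1 of the 5, was used by the rule. FN1, fibronectin, was at 2516 CPM in the control, 1198 in hashtag 2, 1988 in hashtag 3 and 1477 in hashtag 4, lowest in hashtag 2. THY1 was 7.33-fold (5.53 to 9.91) lower, TPM1, a tropomyosin, 3.33-fold (2.997 to 3.71) and TGFBI 2.62-fold (2.43 to 2.82). COL5A2, a fibrillar collagen chain, had 3 UMIs against 109, a ratio of 0.0397 (0.00805 to 0.119). Among the higher members were S100A4 (2.14-fold, 1.895 to 2.42), IGFBP2 (3.31-fold, 2.58 to 4.29) and FBLN1. Among 4 measured EMT transcription factors SNAI2, or Slug, was 1.79-fold (1.61 to 1.997) higher and TBX3 2.27-fold (1.88 to 2.75), and SOX4 was 2.57-fold (2.31 to 2.87) lower. SNAI2 was at 62.1, 111, 58.9 and 106 CPM in hashtags 1 to 4, so hashtag 4 was close to hashtag 2. The median of these 4 factors changed sign with the filter on low values.

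**Figure D4:**
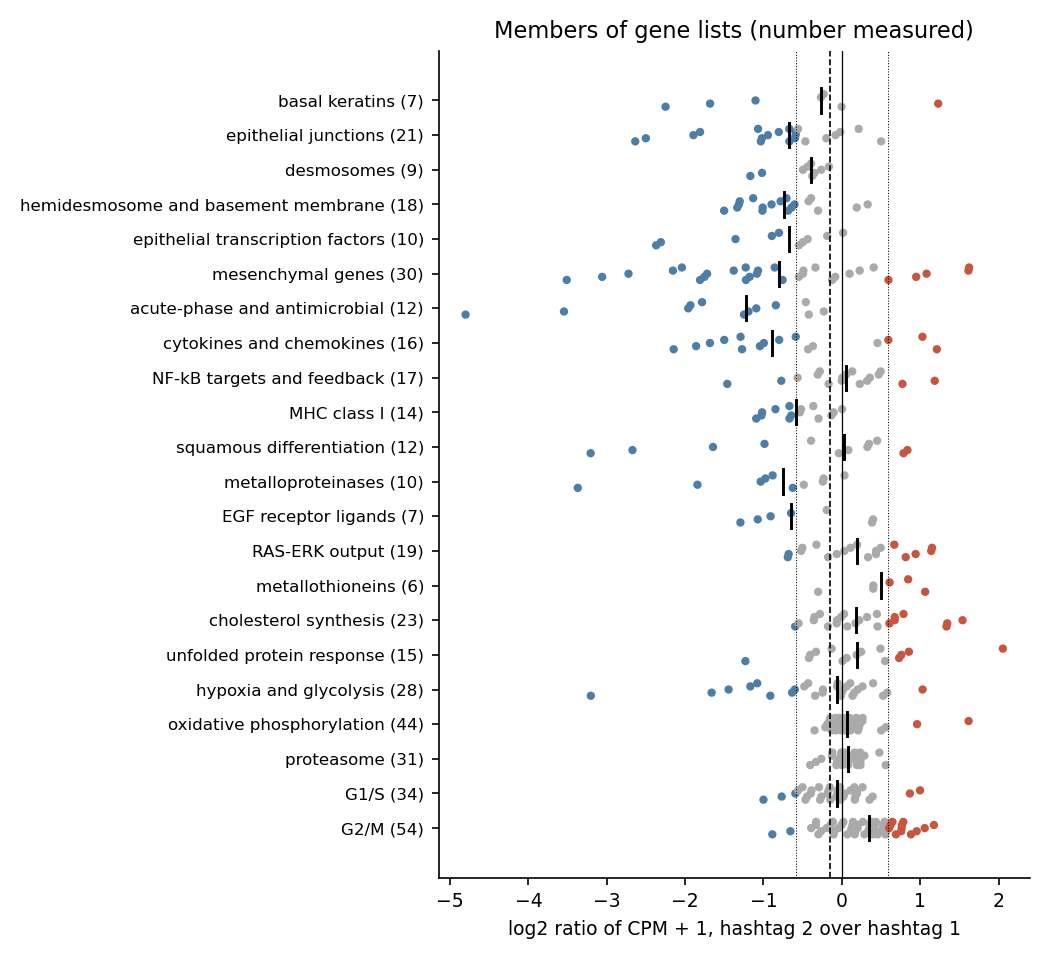
Log2 ratio of each measured member of 22 gene lists, with the median as a black bar, the median of all measured genes dashed and 1.5-fold dotted. Junction, basement membrane, mesenchymal and acute-phase members lie mostly to the left, cholesterol and G2/M members extend to the right, and proteasome members stay between the dotted lines.

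Secreted defence proteins were mostly lower. Of 12 measured acute-phase and antimicrobial genes 9 were lower and 0 higher, with a median of -1.22 (-0.51 with no filter on low values). S100A9, a calprotectin subunit, was at 139 against 535 CPM, or 3.84-fold (3.58 to 4.11) lower, SLPI, a leukocyte protease inhibitor, was 3.94-fold (3.57 to 4.35) lower and the serum amyloid gene SAA1 2.29-fold (2.19 to 2.39). SLPI, PI3 and WFDC2 of this list are neighbours on chromosome 20. SAA1 and SAA2 are near-identical, so their split is uncertain. SAA1 was lower still in the knockout lines, at 130.4 and 97.5 CPM in hashtags 3 and 4 against 370.1 in hashtag 2. Of 16 cytokines and chemokines 10 were lower and 3 higher. IL1B was 3.69-fold (3.26 to 4.18) lower, IL32 4.62-fold (3.82 to 5.61), IL18 3.24-fold (2.96 to 3.56) and CXCL1, which has close copies in CXCL2 and CXCL3, 2.88-fold (2.52 to 3.300). CCL20 was 2.38-fold (2.01 to 2.81) higher, CSF2 2.13-fold (1.67 to 2.74) and IL11 was at 33.9 against 22.1 CPM. The NF-kB list, of targets and feedback genes with subunits such as RELA, was not shifted with them. Of its 17 measured genes 2 were higher, ICAM1 and REL, 2 lower, NFKBIZ and RELA, and the median was 0.05. CCL20, CSF2, ICAM1 and NFKBIA had their highest level of the 4 hashtags in hashtag 2. NFKBIA, the NF-kB inhibitor, was at 400.3, 555, 244 and 255 CPM in hashtags 1 to 4.

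Antigen presentation genes of MHC class I were lower in 7 of 14 cases and higher in 0. HLA-B was 2.05-fold (1.86 to 2.26) lower and the peptide transporter subunit TAP1 2.199-fold (1.78 to 2.73), while B2M, the light chain, was level at 935 against 933 CPM. Reads of the class I genes can be split between close copies. Of 9 interferon-induced genes 4 were higher and 2 lower.

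Squamous genes were split, 2 of 12 higher and 4 lower. The cornified envelope genes SPRR1B and SPRR2D were lower, SPRR1B at 42.7 against 136 CPM, and CASP14, the protease of cornification, was 6.88-fold (5.41 to 8.88) lower. GJB2, connexin 26, was 1.79-fold (1.65 to 1.95) higher. CSTA, a protease inhibitor of the cornified envelope, was at 393, 493, 247 and 186 CPM in hashtags 1 to 4, highest in hashtag 2.

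In growth factor signalling the receptor and some of its ligands were lower. EGFR was at 181, 73.3, 119 and 118 CPM in hashtags 1 to 4, or 2.47-fold (2.24 to 2.73) lower in hashtag 2 than in the control. Its ligands TGFA and EREG were lower at 17.97 against 38.9 and 74.8 against 141 CPM. AREG, the most abundant ligand by CPM, was within 1.5-fold at 1715 against 1959 CPM. Of 19 genes of RAS-ERK output 5 were higher and 2 lower. Higher were the ETS factor ETV5, the phosphatase DUSP5 (2.23-fold, 1.99 to 2.496), PHLDA1, SPRY4 and MYC (1.59-fold, 1.51 to 1.68). ETV5 and MYC lie in blocks of higher neighbours, and outside those blocks 3 genes of this list were higher. Of 14 Notch and Wnt genes 4 were lower and 0 higher, with the receptor NOTCH1 2.96-fold (2.34 to 3.78) lower. The list median was -0.30, and over all measured genes 18.8% were lower and 6.13% higher. Of 14 genes of the YAP and TEAD list 6 were lower and 0 higher. F3, tissue factor, was 4.33-fold (3.85 to 4.88) lower and YAP1 itself 1.83-fold (1.52 to 2.21), while the targets CYR61 and CTGF were at 111 against 139 and 17.1 against 20.8 CPM. Of 19 TGF-beta and BMP genes 3 were higher and 6 lower, with the feedback gene PMEPA1 at 38.7 against 149 CPM.

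Metallothioneins, small proteins that bind zinc and copper, gave the largest single difference in CPM. MT2A was at 11420.4 CPM in the control, 23872 in hashtag 2, 14313 in hashtag 3 and 12645 in hashtag 4, or 2.09-fold (2.07 to 2.11) higher than in the control. MT1E was 1.799-fold (1.75 to 1.84) higher and MT1X 1.53-fold (1.43 to 1.64). These genes are close copies, which leaves each single level uncertain. The 9 members of the list in the matrix, 6 of them measured, summed to 26186 against 12755 CPM.

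Cholesterol synthesis enzymes leaned higher, 7 of 23 with 1 lower and a median of 0.18 (0.61 at 50 CPM or more). DHCR7, the last enzyme of the pathway, was 2.94-fold (2.66 to 3.27) higher, the isomerase IDI1 2.56-fold (2.35 to 2.79), MSMO1 2.54-fold (2.37 to 2.72) and HMGCS1 1.74-fold (1.53 to 1.98). DHCR7 lies in a block of neighbouring genes that were higher together, described below. In the unfolded protein response 4 of 15 were higher, DDIT3, CHAC1, HERPUD1 and the chaperone HSPA5 (1.66-fold, 1.57 to 1.76), and PDIA6 was 2.36-fold (2.198 to 2.53) lower. Of 28 hypoxia and glycolysis genes 1 was higher, CA9 (2.07-fold, 1.83 to 2.33), and 8 lower, among them PDK1 (3.01-fold, 2.14 to 4.34) and the glucose transporter SLC2A1 (2.15-fold, 1.83 to 2.54). Among the glycolytic enzymes the hexokinase HK2 was lower at 5.94 against 12.1 CPM, and LDHA was at 2325 against 2300.3 CPM. None of 31 proteasome genes passed 1.5-fold in either direction. Of 44 oxidative phosphorylation genes 2 were higher, NDUFC2 and CYC1, and 0 lower, and both lie in blocks of higher neighbours. Over all measured genes 6.13% were higher and 18.8% lower.

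Over all compared cells together, mitotic genes leaned higher and replication genes did not. Of 54 G2/M genes 12 were higher and 2 lower, with a median of 0.34. The lean was not the same at all V. The median was 0.49 at V up to 0.1, -0.32 from 0.1 to 0.25 and -0.07 from 0.25 to 0.5. CDK1, the mitotic kinase, was at 45.8, 105, 99.8 and 115 CPM in hashtags 1 to 4, so the control had the lowest level. CKS1B was 1.85-fold (1.73 to 1.98) higher and PTTG1, securin, 1.62-fold (1.53 to 1.71), while MKI67 was 1.58-fold (1.44 to 1.74) lower. Of 34 G1/S genes 2 were higher and 3 lower, RRM2, a ribonucleotide reductase subunit, among them (2.03-fold, 1.73 to 2.397). In cells thinned to 2000 UMIs the median was 4 G2/M UMIs per cell in hashtag 2 and 2 in the control, and 47.9% against 31.2% had at least 5. For the p53 targets CDKN1A was 1.55-fold (1.44 to 1.66) lower and MDM2 2.03-fold (1.85 to 2.24), and GDF15 was 2.49-fold (2.26 to 2.74) higher. Of the D-type cyclins of G1, CCND2 was 2.62-fold (2.23 to 3.09) lower, while CCND1 was at 179 against 166 CPM and CCND3 at 46.1 against 48.1 CPM. Their kinase partner CDK6 was 2.46-fold (2.14 to 2.84) lower and CDK4 was at 107 against 96.4 CPM.

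The transcripts named in the knockouts were low in all groups. EED (chromosome 11, 86244544 to 86278813, plus strand) was at 13.6 CPM in the control, 9.13 in hashtag 2, 19.97 in hashtag 3 and 14.8 in hashtag 4. The ratio of hashtag 2 to the control was 0.672 (0.4904 to 0.913), short of 1.5-fold on log2(CPM + 1). KMT2D was at 4.63, 2.61, 3.703 and 4.83 CPM, from 46 UMIs in the control and 18 in hashtag 2. An edit need not remove the transcript, a 3' count reads only its end, and each knockout line kept its own, so these levels are no check of the edits. Of 10 PRC2 genes 2 were lower, RBBP4 and RBBP7, and 0 higher, with EZH2 at 12.6 against 14.3 CPM. The median of -0.14 was close to that of all genes. KMT2A, a related methyltransferase, was 2.34-fold (1.94 to 2.84) lower, and 2 of 8 measured genes of the KMT2C and KMT2D complex list, KMT2A and KMT2C, were lower. Both counts are near the 18.8% of all measured genes that were lower, and KMT2A lies in a block of lower neighbours, outside which 1 of 7 was lower.

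Of 10 measured imprinted genes 2 were higher and 3 lower, with a median of -0.14, close to that of all genes. MEG3, a maternally expressed long RNA, was 7.54-fold (5.38 to 10.9) lower, and IGF2 had 3 UMIs against 134, a ratio of 0.0323 (0.00657 to 0.0963). PEG10 was 2.52-fold (2.19 to 2.904) higher and PHLDA2 1.79-fold (1.72 to 1.87). SNRPN was at 50.3, 51.3, 1.77 and 62.1 CPM in hashtags 1 to 4, so that hashtag 2 was level with the control and hashtag 3 was low. Of 4 measured HOX genes 1 was lower, HOXB7 (7.34-fold, 4.24 to 13.7), and 0 were higher.

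The differences were not spread evenly along the genome. The 5211 genes of at least 20 CPM were placed in order by GENCODE 29, and the log2 ratio, centred on the median of all of them, was taken as a median over each 15 neighbouring genes, a window chosen after the values were seen. Of 4889 such windows 122 (2.5%) had a median at least 1.5-fold higher in hashtag 2 and 109 (2.23%) at least 1.5-fold lower. They joined into 4 higher and 7 lower stretches. For hashtag 3 against the same control 4 of 5078 windows (0.0788%) were higher, in 1 stretch, and 0 lower. For hashtag 4 against it 0 of 4972 were higher and 121 (2.43%) lower, in 3 stretches. Lower stretches were thus not particular to hashtag 2. Over the genes of the hashtag 2 stretches the medians lay between -0.12 and 0.22 on the log2 scale in hashtags 3 and 4 over the control.

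On chromosome 11 a higher and a lower stretch adjoined. From 68.5 Mb on, 36 of 43 genes were above the median of all genes and 27 were at least 1.5-fold higher, with a median ratio of 0.96 on the log2 scale. Near its end PAK1, a kinase of cell movement, was at 77.4 against 23.6 CPM, RSF1, a chromatin remodeller, at 198 against 82.9 CPM, and NDUFC2 of respiratory complex I at 717 against 233 CPM. NARS2 was the last higher gene, and from the next measured gene, CCDC90B, at 32.3 against 68.6 CPM, the side changed. In the lower stretch, which ran to 134.3 Mb and overlaps the first in its windows, 72 of 80 genes were below the median of all genes and 57 at least 1.5-fold lower. The 5 that were at least 1.5-fold higher are RSF1, AAMDC, NDUFC2, ALG8 and NARS2 at the shared edge. ATM, the DNA damage kinase, was at 10.4 against 23.9 CPM, CASP1 at 14.3 against 29.8 CPM, and YAP1, ST14, THY1, IL18 and KMT2A, described above, lie in it. EED lies within its bounds.

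Other stretches lay on chromosomes 2, 3, 8, 18, 20 and X. On chromosome 18, 0.2 to 23.6 Mb, 23 of 27 genes were above the median, and the myosin light chains MYL12A and MYL12B, which are close copies, were at 487 against 241 and 701 against 348 CPM. On chromosome 3, 149.4 to 193.7 Mb, 60 of 67 genes were above the median, with EIF4A2, a translation helicase, at 455 against 188 CPM. CLDN1 and TP63 in that stretch were not higher. On chromosome 8, 126.6 to 145.1 Mb, 38 of 45 were above, with the ribosomal protein RPL8 at 8114 against 4305 CPM and CYC1. At the start of chromosome 2, 0.2 to 20.4 Mb, 25 of 30 genes were below the median, with the ribosomal protein RPS7 at 1647 against 3194 CPM and PDIA6. On chromosome 20 there were 4 lower stretches, and over the whole chromosome the median of 185 genes was -0.40 after centring, with 16.2% of them above the median of all genes. On X, 13.0 to 20.3 Mb, 14 of 17 genes were below the median, and GPM6B in that stretch was higher. The medians of the other chromosomes lay between -0.14 (chromosome 11) and 0.22 (chromosome 10).

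**Figure D5:**
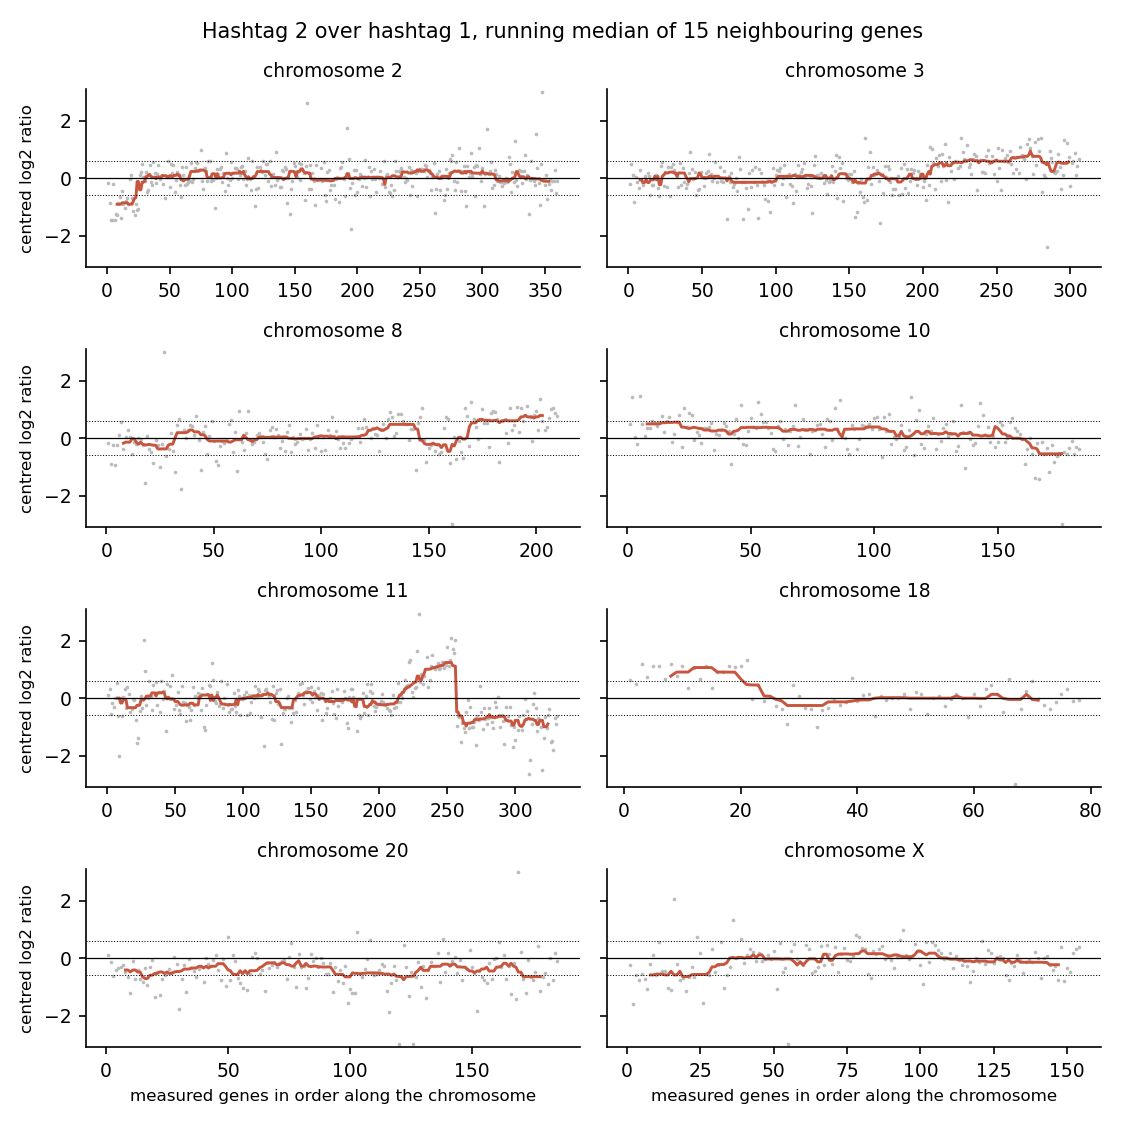
Centred log2 ratio of hashtag 2 over hashtag 1 for genes of at least 20 CPM in order along 8 chromosomes (grey, drawn at the edge beyond 3), with the running median of 15 genes in red and 1.5-fold dotted. Chromosome 11 shows a rise followed by an abrupt change of side, and chromosome 20 lies below 0 over most of its length.

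The blocks were also counted cell by cell. In cells thinned to 2000 UMIs the chromosome 11 higher stretch gave a median of 28 UMIs per cell in hashtag 2 and 14 in the control, and 78.7% of hashtag 2 cells lay above the 95th percentile of control cells. The chromosome 8 stretch gave medians of 27 and 16, with 62.8% of cells above it. In both stretches 1 ribosomal protein gene gave most of the UMIs. RPS3 made up 9759 of 14203 CPM of the chromosome 11 higher stretch in hashtag 2 and 4985 of 7463 in the control. RPL8 made up 8114 of 14021 CPM of the chromosome 8 stretch in hashtag 2 and 4305 of 8294 in the control. The shares of cells thus rest largely on RPS3 and RPL8, and counts without them were not made. The chromosome 11 lower stretch gave medians of 12 and 18, with 32.6% of cells below the 5th percentile of control cells. Hashtag 2 cells with V over 0.5 had medians of 29, 25 and 13 UMIs for these 3 stretches, close to those of the epithelial-state cells. In the other stretches fewer epithelial-state cells lay beyond the matching control percentile. The share was 26.7% on chromosome 2, 26.5% on chromosome 3, 24.0% on chromosome 18 and 5.95% on X. On chromosome 20 the stretches from 1.4, 44.5 and 62.2 Mb gave 4.41%, 6.88% and 11.1%. In its stretch from 36.3 Mb both medians were 2, and the control 5th percentile was 0, so no cell could lie below it. DNA copy number was not measured and its part in these differences was not tested.

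The stretches hold 495 of the 7541 measured genes (6.56%). Since they were chosen on these same ratios, the counts of genes in them are a description. They held 115 of the 462 higher genes (24.9%) and 199 of the 1415 lower genes (14.1%). Outside them 347 of 7046 genes were higher (4.92%) and 1216 lower (17.3%). Of the genes with the highest ratios AAMDC, NARS2 and GPM6B lie in stretches, and of those with the lowest ratios WFDC2 and MMP9. Outside the stretches the median was -0.74 for the basement membrane list, -0.60 for junctions, -0.55 for mesenchymal genes, -1.09 for acute-phase genes, 0.18 for cholesterol synthesis and 0.31 for G2/M. The mesenchymal median without them was thus nearer to 0 than the -0.81 with them.

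The hashtag 2 cells were also split at V of 0.1 and 0.25, and each range was set against control cells of the same range. PDPN was at 0.605 against 58.7 CPM up to 0.1 and at 0.946 against 53.3 CPM from 0.1 to 0.25. KRT14 was at 4134 against 1692, 4013 against 1284 and 2552 against 964 CPM in the 3 ranges. The mesenchymal median was -1.27, -0.95 and -0.34 from the lowest range to the highest, and the G2/M median was 0.49, -0.32 and -0.07. The same list members were used in each range, and the medians of all genes were -0.14, -0.18 and -0.25. The G2/M median thus lay above that of all genes in the lowest and the highest range and below it in the middle one. The highest range rests on 52 control cells with 288336 UMIs.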

How the data were processed

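The deposited matrix holds UMI counts per gene and barcode from 1 gene expression library and 1 hashtag library, made by the 10x 3' V2 kit per the labels' protocols and by Cell Ranger 3.0.2 on GRCh38 per the submitters' processing notes. No other unit was used, and the sources used here do not give the strand setting or gene annotation of the counting. Cells were assigned, filtered and split by V as the report gives. Doublets carrying several hashtags were dropped by the 10 times rule, and those of 1 hashtag were left in.

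UMIs were summed per hashtag and divided by the sum over all genes to give CPM. Ratios are on log2(CPM + 1), over genes of at least 10 CPM in either group, and printed folds are ratios of CPM with exact conditional binomial 95% intervals. Shares have Clopper-Pearson intervals after thinning to 2000 UMIs. UMIs count captured molecules, so intervals cover counting error only. The code for ratios was tested on simulated data.

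Named genes were the 15 highest and 15 lowest ratios at 20 CPM or more in either group, without mitochondrial genes and clone names, the 5 genes furthest above and below all other hashtags, the genes of V, KRT14, EED, KMT2D and list members. Some genes are not reported here, so 14 highest are given. The cells and lists were chosen with earlier results of these data known, and members named within a list were picked for their values. Alternatives changed the cell filter, V bound, hashtag rule, weighting, depth, scaling, low-value filter, pseudocount and doublets. Python 3.11.15, numpy 2.4.6, pandas 2.3.3, scipy 1.17.1, R 4.3.3 and edgeR 4.0.16 (TMM factors only) were used. Positions are from GENCODE 29.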

Additional observations from a re-analysis of the deposited data

How the results depend on the processing

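Each hashtag is 1 sample, so the spread between replicates is unknown. No paired analysis was possible because no group has replicates. The number of higher genes was 462 and became 744 with TMM scaling, 734 after centring (an alternative chosen after seeing the data), 198 at 50 CPM or more and 972 with no filter. The number of lower genes was 1415 and became 939 with TMM, 303 at 50 CPM or more and 3122 with no filter. The stricter filter tests fewer genes and no filter tests more. The EMT transcription factor median turned to -0.26 at 50 CPM or more, where fewer of its members are measured. Over all alternatives the mesenchymal median ranged from -1.20 (V up to 0.1) to -0.19 (no filter), the acute-phase median from -1.50 to -0.51 and the cholesterol synthesis median from 0.08 to 0.61. The share of hashtag 2 cells with V up to 0.5 was 52.4%, and 56.4% with a V sum of at least 20, 68.0% when cells were thinned to 5000 UMIs and 57.2% with at least 1000 genes and at most 10% mitochondrial UMIs; the cause was not tested. The 29 highest and lowest genes, chosen for their extreme ratios in the same cells, all kept their direction and stayed past 1.5-fold in the 13 alternatives run for them. Depth limits the lowest levels: PDPN rests on 4 UMIs in hashtag 2.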
